A study of Rattus norvegicus with 23 samples.

Results

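T-box transcription factors were followed across 6 regions of the adult rat heart and its great vessels. The 6 genes Tbx1, Tbx2, Tbx3, Tbx5, Tbx18 and Tbx20 were listed by name, and a gene counted as measured where the RefSeq accession of an array probe belonged to it. Under this rule 5 of the 6 were measured, by 7 of the 45440 probes used, and they are 5 of the 16544 genes with a named probe. No probe was matched to Tbx2, which is not analysed here. All 5 measured genes passed the filter on low values, with 16089 genes in all.

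The study compared heart regions to find genes that mark each of them. The 12 rats were Wistar males of 8 to 11 weeks, with no genetic change and no drug treatment other than terminal anaesthesia given with heparin, and their RNA was hybridised to 23 single-color Agilent arrays. There were 4 arrays each of the left atrium next to the pulmonary vein (LA), the left ventricle (LV), the sinoatrial node region (SA), the pulmonary vein (PV) and the pulmonary artery (PA), and 3 of the right ventricle's free wall (RV). The SA tissue of 2 rats was joined in each SA sample, and V stands for the mean of LV and RV. Each left ventricular mass was cut into 3 pieces used as samples, so LV arrays may share a heart. The labels do not say which samples came from the same rat, so the p-values measure the spread between these samples. These are whole tissue pieces, in which fewer cells of a type and less RNA per cell cannot be told apart.

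T-box proteins bind DNA through a shared domain, the T-box, and act in part as activators and in part as repressors of the same heart genes. Tbx5 and Tbx20 work with Nkx2-5 and Gata4 to switch on chamber muscle genes such as Nppa. Tbx2 and Tbx3 hold these genes down where conduction tissue forms, Tbx3 in the sinus node and the rest of the conduction system. Tbx18 is needed for the sinus node head and marks the epicardium and the mural cells of vessels, and Tbx1 acts in the pharyngeal arches and in the progenitors of the outflow tract. In the RefSeq rat gene table (assembly GRCr8) Tbx3 and Tbx5 are direct neighbours on chromosome 12, and Tbx2 lies next to Tbx4 on chromosome 10.

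The share of probes well above background was 58.6% to 79.8% over the 23 arrays. It averaged 76.9% on the 11 arrays in row 1 of a slide and 63.0% on the 12 arrays in row 2, and both rows hold every region, so values within each row are given where they change a result. Row 1 has 1 SA and 1 PV array and row 2 has 1 LA and 1 RV array, and a within-row test with such an arm takes the lone sample to vary like the other groups. The summed signal of the 5 atrial myocyte markers (Myl7, Myl4, Mybphl, Kcnj3 and Sln), on the log2 scale, was 20.01 to 20.40 in LA, SA and PV and 17.86 to 18.40 in LV and RV. The summed signal of the 4 ventricular markers (Myl2, Irx4, Myl3 and Myh7) was 20.08 to 20.48 in LV and RV and 18.32 to 18.86 in LA, SA and PV. The summed signal of the 5 smooth muscle markers was 18.84 to 19.08 in PA and 14.63 to 16.06 in all other regions. For the 3 sinus node markers Hcn4, Shox2 and Isl1 the summed signal was 11.86 to 12.05 in SA, 11.25 to 11.58 in PV and 8.66 to 10.09 elsewhere. Isl1 was well above background on 1 of 4 SA arrays and on all 4 PA arrays, and Hcn4 was so on every array of the 6 regions.

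All 5 measured T-box genes differed among the 6 regions (limma's moderated F-test, adjusted p = 7.8e-12 for Tbx18 to adjusted p = 1.04e-05 for Tbx3 over all genes), where 64.4% of all genes did. Over the 15 pairs of regions, the share of all genes that passed ran from 0.522% for LV and RV to 55.8% for LV and PA. The T-box genes fell into 3 kinds of regional order. Tbx18 and Tbx1 were highest in PA, Tbx5 and Tbx20 were high in LA, SA and PV and low in PA, and Tbx3 had its highest means in SA and LV when the highest probe was taken on each array. The span from the lowest to the highest regional mean was 3.68 on the log2 scale for Tbx18, 3.09 for Tbx20, 2.95 for Tbx1, 2.49 for Tbx5 and 1.63 for Tbx3. With limma's normexp background correction the spans were 3.39 for Tbx18, 2.25 for Tbx1, 1.44 for Tbx5 and 1.22 for Tbx20, which then had the smallest of the 5.

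**Figure D1:**
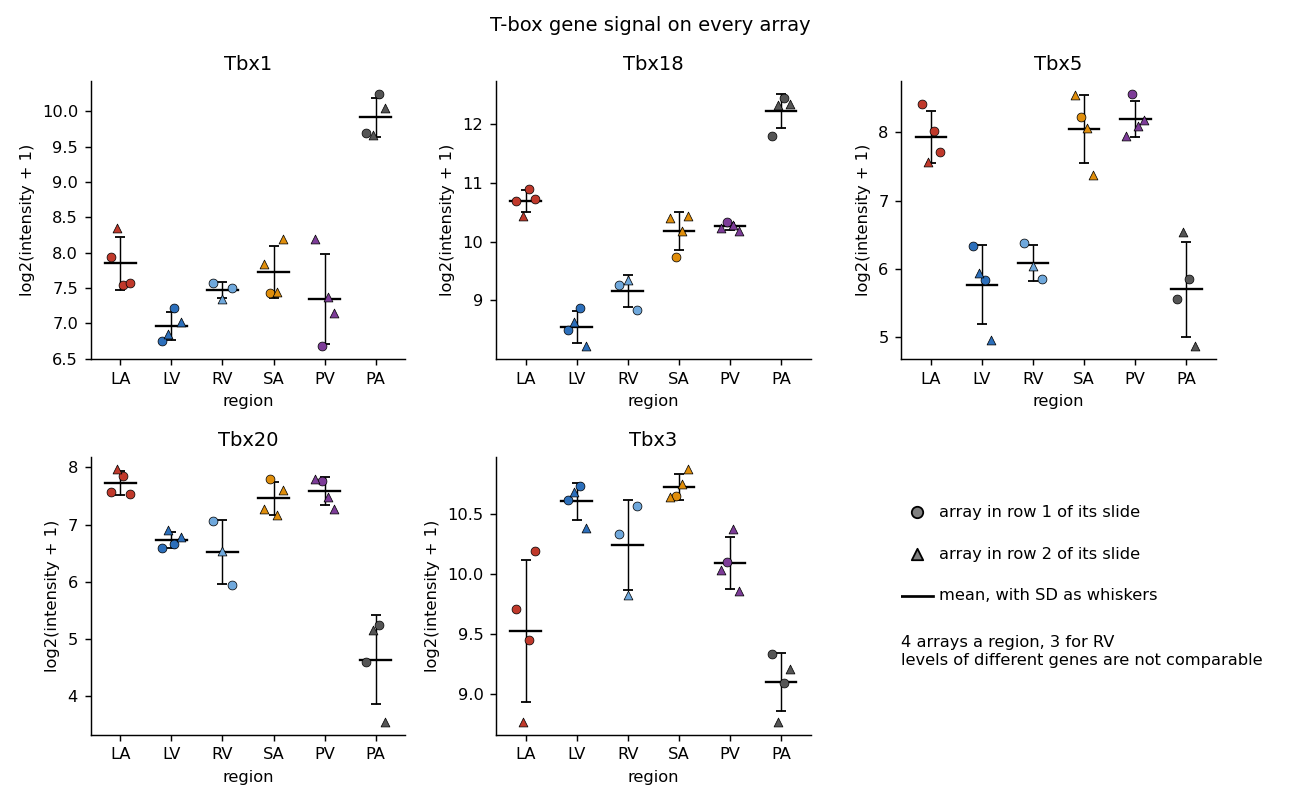
Log2(intensity + 1) of each T-box gene on each of the 23 arrays by region, the highest probe of a gene on each array, with the regional mean (line) and SD (whiskers), and with the array's row on its slide as circle or triangle. Tbx1 and Tbx18 lie highest on all 4 PA arrays, Tbx20 lies lowest there, and Tbx5 forms a high set (LA, SA, PV) and a low set (LV, RV, PA).

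PA was compared with the mean of the other 5 regions because it is a vessel and not heart muscle. Tbx18 and Tbx1 were higher in PA and Tbx20, Tbx5 and Tbx3 were lower, so all 5 passed the threshold, where 59.1% of all genes tested did (31.4% higher and 27.7% lower). The Tbx3 call held on 1 of its probes and not on the other (-0.19, adjusted p = 0.235, on A_44_P1111586). The PA arrays of Tbx18, Tbx1 and Tbx20 did not overlap any other array. The share of all genes that separate in this way was not counted, so it is not a trait of T-box genes. The DNA just upstream of these genes is shown as a description. It runs up to the first base of the gene's annotated span, in the gene's own direction (RefSeq, GRCr8), and is Tbx1 on the plus strand (chr11:95913360-95913609), Tbx18 on the minus strand (chr8:97559989-97560215) and Tbx20 on the minus strand (chr8:31534052-31534259). Capitals mark any match to the T-box half-site AGGTGT, the GATA motif AGATAA or the TEAD motif GGAATG on either strand; the motifs do not overlap.
Tbx1: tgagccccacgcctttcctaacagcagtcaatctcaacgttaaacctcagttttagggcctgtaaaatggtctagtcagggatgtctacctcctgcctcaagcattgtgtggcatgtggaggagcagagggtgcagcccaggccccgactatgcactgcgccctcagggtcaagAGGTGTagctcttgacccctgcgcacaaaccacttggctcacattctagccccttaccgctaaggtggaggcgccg
Tbx18: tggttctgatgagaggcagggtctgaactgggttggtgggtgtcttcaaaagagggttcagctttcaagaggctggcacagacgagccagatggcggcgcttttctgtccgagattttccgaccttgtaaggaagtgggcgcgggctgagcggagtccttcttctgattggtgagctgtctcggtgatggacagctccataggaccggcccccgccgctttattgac
Tbx20: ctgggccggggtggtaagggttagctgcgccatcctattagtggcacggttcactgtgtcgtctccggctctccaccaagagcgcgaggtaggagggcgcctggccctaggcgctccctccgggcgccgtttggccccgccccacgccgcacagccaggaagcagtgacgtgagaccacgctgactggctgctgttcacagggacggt
The search found 1 match, the half-site AGGTGT at bases 175 to 180 of the 250 bases of Tbx1, and none of the 3 motifs in the 227 bases of Tbx18 or the 208 bases of Tbx20. Among 33469 RefSeq promoter windows cut to 250 bases, 11.6% hold AGGTGT, 10.3% hold AGATAA and 12.1% hold GGAATG. The promoter table has entries for 4 of the 6 listed genes, and the window of Tbx5 lies inside the annotated gene and is not shown.

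Tbx18 had the highest values in PA, at 11.81, 12.33, 12.44 and 12.35 on the log2 scale. Its LV values were 8.49, 8.63, 8.87 and 8.22, and its LA values were 10.69, 10.44, 10.89 and 10.73. No PA array overlapped any of the other 19 arrays. PA was 5.52-fold above the mean of the other regions (log2 difference 2.46 ± 0.13 SE, adjusted p = 2.86e-12). The fold changes here and below are on the log2(intensity + 1) scale, which understates changes of dim genes. In intensity units, the Tbx18 mean was 4877 ± 885 (SD, n = 4) in PA and 1660 ± 211 (SD, n = 4) in LA.

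Tbx1 read 9.70, 9.66, 10.25 and 10.04 in PA. The highest value outside PA was 8.35, on an LA array. PA was 5.42-fold above the other regions (log2 difference 2.44 ± 0.20, adjusted p = 1.72e-09), and its mean intensity of 976 ± 194 (SD, n = 4) stood against 124 ± 17.6 (SD, n = 4) in LV. After PA, the order of means was LA (7.85), SA (7.73), RV (7.48), PV (7.35) and LV (6.96), in which no neighbours passed the threshold (adjusted p = 0.276 to 0.82).

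Tbx20 went the other way. Its PA values were 4.60, 5.16, 5.24 and 3.55, and only 2 of these 4 arrays were well above background, while the lowest value elsewhere was 5.94 on an RV array. PA was 5.92-fold below the mean of the other regions (log2 difference -2.57 ± 0.23, adjusted p = 4.72e-09). The size depends on the background correction for so dim a probe. With limma's normexp correction it was -0.97 (adjusted p = 6.54e-08).

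Tbx5 was 2.83-fold lower in PA than in the mean of the other regions (log2 difference -1.50 ± 0.26, adjusted p = 3.69e-05), and -0.79 with the normexp correction. Its PA values of 5.56, 6.54, 5.86 and 4.87 overlapped those of LV and RV and lay below every value of LA, SA and PV. PA and LV did not pass the threshold against each other (adjusted p = 0.889, where 55.8% of all genes passed), nor did PA and RV (adjusted p = 0.39, where 53.6% passed). Tbx5 was not well above background on 1 of 4 PA arrays and on 1 of 4 LV arrays.

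The cell type markers differed in PA too. The summed signal of the 4 measured cardiac myocyte markers (from Actn2, Tnnt2, Tnni3, Ttn and Myom1) was 13.55 to 15.48 in PA and 19.27 to 19.94 elsewhere on the log2 scale, and all 4 stayed well above background on every PA array. The summed signal of the 5 smooth muscle markers was higher in PA (above), as was that of the 5 pericyte markers, at 16.61 to 16.90 against 13.91 to 15.10. The 5 fibroblast markers summed to 17.69 to 17.92 in PA and to 15.91 to 17.50 in the other regions. Their members went both ways, with Col1a1 higher in PA by 1.92 and Tcf21 lower (-1.25, adjusted p = 4.05e-05), and among the pericyte markers Rgs5 was lower (-0.57, adjusted p = 0.00121). Of the 4 fat markers, Ucp1 (5.21), Adipoq (3.82) and Lep (2.57) were higher in PA and Cidea was lower (-1.24), all past the threshold. Outside PA, Ucp1, Adipoq and Lep were not well above background on every array, so their sizes depend on the background. The part of these cell types in the values of Tbx18, Tbx1, Tbx20 and Tbx5 was not tested.

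**Figure D2:**
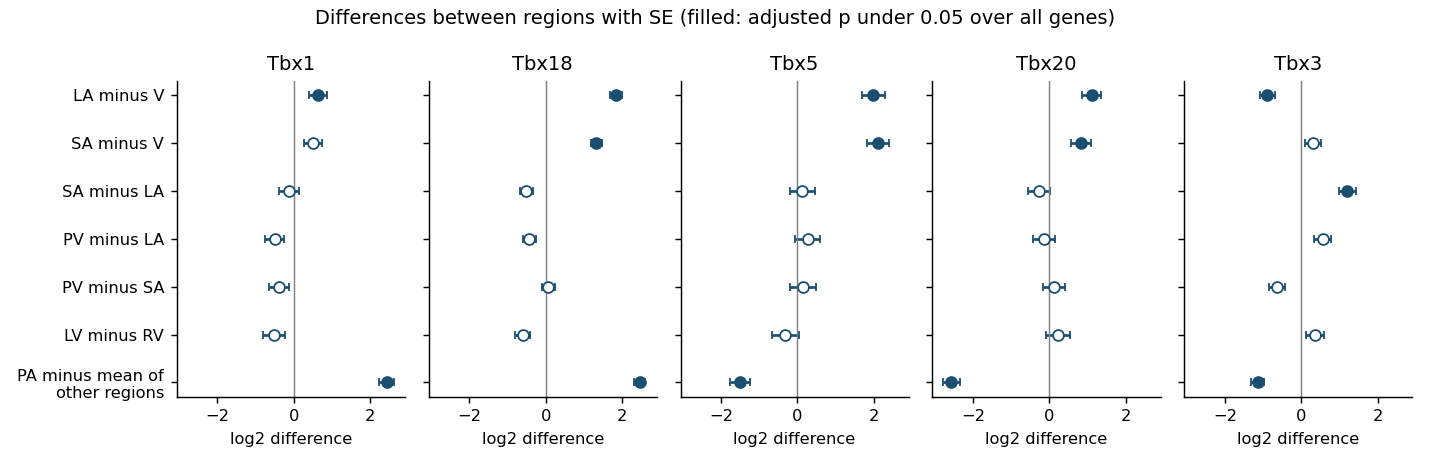
Log2 differences between regions for each T-box gene with SE bars, from 1 limma fit of 23 arrays; filled points have an adjusted p under 0.05 over all 16089 genes. Tbx1 and Tbx18 lie far to the right in PA, Tbx20, Tbx5 and Tbx3 to the left, and Tbx3 alone has a filled point in the comparison of SA and LA.

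LA and V were compared to find the T-box genes that separate atrial from ventricular muscle. Tbx5, Tbx18, Tbx20 and Tbx1 were higher in LA and Tbx3 was lower, so 5 of 5 passed, where 35.4% of all genes did (16.9% higher and 18.4% lower). The median difference over all genes was -0.09. The LA and V groups did not overlap for Tbx5, Tbx18 and Tbx20, and overlapped for Tbx1 and Tbx3. The share of all genes whose LA and V groups do not overlap was not counted. Other cell type markers differed between LA and V as well, with erythroid markers higher in 3 of 3, endothelial markers lower in 3 of 5 (median -1.06), smooth muscle markers lower in 3 of 5 and macrophage markers lower in 2 of 3, and their part in the T-box values was not tested.

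Tbx5 had the largest of these differences in the main values, and Tbx18 had it with the normexp correction (1.65 against 1.11). Its LA values were 8.42, 7.56, 8.02 and 7.70. In LV it read 6.34, 5.94, 5.84 and 4.96, and in RV 6.38, 6.05 and 5.86. All 4 LA arrays were above all 7 ventricular arrays, and LA was 3.97-fold higher (log2 difference 1.99 ± 0.29, adjusted p = 2.22e-05). Within row 1 the difference was 1.94 (adjusted p = 0.00212) and within row 2, with 1 LA array, 1.81 (adjusted p = 0.142). With the normexp correction it was 1.11 (adjusted p = 1.08e-05). PV (8.19 ± 0.27, SD, n = 4), SA (8.05 ± 0.49, SD, n = 4) and LA (7.92 ± 0.38, SD, n = 4) did not differ beyond the threshold from each other. The step from LA to RV passed it (adjusted p = 0.000627, where 27.2% of all genes passed), so Tbx5 formed a high and a low set of regions.

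Tbx18 was 3.57-fold higher in LA than in V (log2 difference 1.84 ± 0.15, adjusted p = 1.73e-08). Within row 1 the difference was 1.91 and within row 2 it was 1.55. The RV values of 9.26, 9.35 and 8.84 and the LV values all lay below the lowest atrial, SA or PV value, 9.74. The summed signal of the 4 measured mesothelial markers (from Msln, Upk3b, Wt1, Lrrn4 and Upk1b), which mark the heart's outer lining, was 14.45 to 14.75 in LA, 9.83 to 11.39 in LV and 11.83 to 12.63 in RV. Of these markers 3 of 4 were higher in LA than in V, and Wt1 was at -0.092 (adjusted p = 0.843). The pericyte markers were lower in LA than in V in 5 of 5 (median -1.05). The part of these cell types in the Tbx18 difference was not tested.

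Tbx20 was 2.15-fold higher in LA than in V (log2 difference 1.10 ± 0.26, adjusted p = 0.00217). The LA values of 7.56, 7.96, 7.86 and 7.53 lay above the ventricular maximum of 7.06. In row 1 the difference was 1.09 (adjusted p = 0.039) and in row 2 it was 1.27 (adjusted p = 0.179). It was 0.53 (adjusted p = 0.00196) with the normexp correction.

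Tbx1 was 1.55-fold higher in LA (log2 difference 0.63 ± 0.23, adjusted p = 0.0386), the weakest of the 5. With limma, LA minus LV was 0.89 (adjusted p = 0.0113) and LA minus RV was 0.37 (adjusted p = 0.372), so Tbx1 passed against LV and not against RV. The LA values were 7.93, 8.35, 7.54 and 7.58, and the ventricular values ran from 6.75 to 7.57. Its call was lost without LA replicate 1 or 2, LV replicate 1 or 2, or RV replicate 2 or 3 (adjusted p up to 0.163), with the normexp correction (0.27, adjusted p = 0.215) and within row 1 (0.42, adjusted p = 0.173) and row 2 (1.20, adjusted p = 0.122). With the replicate number as a block its adjusted p was 0.0547, with probes of unnamed accessions kept 0.0539 and in the fit of single probes 0.0509.

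The sinus node region was compared with V and with LA to find genes of the pacemaker tissue. Against V, Tbx5, Tbx18 and Tbx20 were higher in SA, 3 of 5, where 28.1% of all genes passed (12.3% higher and 15.8% lower). Against LA, Tbx3 was higher and the other 4 did not pass, 1 of 5, where 15.3% of all genes passed (7.03% higher and 8.26% lower). Other cell type markers moved with SA. Pericyte markers were lower in SA than in V in 5 of 5 and higher than in LA in 3 of 5. Fibroblast markers passed against V in 5 of 5 (4 lower, 1 higher) and against LA in 4 of 5 (3 lower, 1 higher). Endothelial markers were lower in SA than in V in 4 of 5. The summed smooth muscle signal was 15.35 to 15.74 in SA and 14.63 to 14.97 in LA, LV and RV. The summed mesothelial signal was 12.45 to 13.34 in SA and 14.45 to 14.75 in LA, and that of the 3 erythroid markers was 16.18 to 17.13 in SA, 14.65 to 15.45 in LA and 12.92 to 14.09 in LV and RV. Of 4 fat markers 1 passed between SA and LA, Ucp1, the uncoupling protein of brown fat, which was higher in SA by 6.74 on the log2 scale (adjusted p = 7.26e-05). Ucp1 was well above background on 2 of 4 LA arrays, so this size depends on the background. Adipoq was at 1.78 (adjusted p = 0.0703), Cidea at -0.020 and Lep at -0.48. The part of these cell types in the T-box values was not tested.

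Tbx5 was 4.33-fold higher in SA than in V (log2 difference 2.12 ± 0.29, adjusted p = 1.52e-05), with SA values of 8.54, 8.22, 8.07 and 7.37. The same difference was 2.12 within row 1, with 1 SA array, 2.24 within row 2 and 1.34 with the normexp correction. Between SA and LA the difference was 0.12 ± 0.33 (adjusted p = 0.859). The node arrays thus overlapped LA and PV and not the ventricles.

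Tbx18 was 2.52-fold higher in SA than in V (log2 difference 1.33 ± 0.15, adjusted p = 1.69e-06). Within row 1, which holds 1 SA array, it was 0.87 (adjusted p = 0.173), and within row 2 it was 1.45 (adjusted p = 0.000439). The SA values of 10.40, 9.74, 10.17 and 10.43 all lay below the LA values. The SA minus LA difference was -1.04 (adjusted p = 0.285) within row 1 and -0.10 (adjusted p = 0.826) within row 2. Over all arrays the difference of -0.50 ± 0.17 missed the threshold (adjusted p = 0.0569), and it passed with the normexp correction (adjusted p = 0.0437), with a filter that kept only genes above background (0.0429), with a trend in the prior variance (0.0399) and without LA replicate 2, LV replicate 4, PA replicate 1, RV replicate 3 or SA replicate 4.

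Tbx20 was 1.78-fold higher in SA than in V (log2 difference 0.83 ± 0.26, adjusted p = 0.0201), with SA values of 7.27, 7.79, 7.16 and 7.60. The call was lost within row 1 (1.23, adjusted p = 0.183) and row 2 (0.65, adjusted p = 0.34), and without RV replicate 3, SA replicate 2 or SA replicate 4 (adjusted p = 0.0566 to 0.0744). Tbx1 differed from V by 0.51 ± 0.23 (adjusted p = 0.112), with overlapping groups, and passed in a fit of the compared regions alone (adjusted p = 0.0379) or without PV replicate 1 (adjusted p = 0.0486).

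Tbx3, the repressor of the conduction system, was 2.30-fold higher in SA than in LA (log2 difference 1.20 ± 0.22, adjusted p = 0.00106). Its SA values were 10.64, 10.65, 10.75 and 10.87. Its LA values were 9.70, 8.77, 9.45 and 10.19, and its LV values were 10.62, 10.68, 10.73 and 10.38. SA thus stood above every LA array but overlapped LV, and SA minus V was 0.31 ± 0.20 (adjusted p = 0.286). LA was 1.86-fold lower than V (log2 difference -0.89 ± 0.20, adjusted p = 0.0013), -0.78 (adjusted p = 0.0294) within row 1 and -1.41 (adjusted p = 0.0139) within row 2, with 1 LA array. The SA minus LA difference was 0.87 (adjusted p = 0.361) within row 1 and 1.98 (adjusted p = 0.0124) within row 2. The order of means was SA (10.73), LV (10.60), RV (10.24), PV (10.09), LA (9.53) and PA (9.10), and no neighbours in it passed the threshold (adjusted p = 0.108 to 0.747).

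These Tbx3 values take the highest of its probes on each array, and its probes did not give the same regional pattern. Probe A_64_P137823, designed to a curated RefSeq transcript, supplied the value on every array outside PA, and probe A_44_P1111586, designed to a predicted one, supplied it on 3 of 4 PA arrays. With A_44_P1111586 alone, SA read 10.21, 9.99, 10.25 and 10.26. The other regions read at most 9.84, so that all 4 SA arrays were above all others, though PV minus SA missed the threshold (-0.39 ± 0.16, adjusted p = 0.32). On this probe SA was higher than V by 1.02 ± 0.14 (adjusted p = 2.54e-05), where 20.1% of all single probes passed, and higher than LA by 2.19 ± 0.16 (adjusted p = 1.54e-07), where 9.34% did. PV, at 9.81, 9.84, 9.84 and 9.67, was higher than LA by 1.80 ± 0.16 (adjusted p = 1.17e-06), where 8.23% did. LA was the lowest region on this probe, at 8.32, 7.59, 7.89 and 8.16.

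The direction between LA and PA turned with the probe. On A_44_P1111586 LA was lower than PA by 1.07 on the log2 scale (LA minus PA -1.07 ± 0.16, adjusted p = 1.46e-05), and on A_64_P137823 LA was higher by 0.65 ± 0.24 (adjusted p = 0.0371), where 42.9% of single probes passed. The lower value of PA against the other 5 regions, 2.20-fold in the main values (log2 difference -1.14 ± 0.17, adjusted p = 8.68e-06), was -0.19 ± 0.13 (adjusted p = 0.235) on A_44_P1111586 and -1.36 ± 0.19 (adjusted p = 3.85e-06) on A_64_P137823, where 51% of single probes passed. Tbx3 lower in PA therefore holds on 1 of its probes. LA lower than V held on both, at -1.16 and -0.89, where 26.4% of single probes passed.

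The log2 difference between the Tbx3 probes (A_44_P1111586 minus A_64_P137823) was taken on each array, so that a scaling shared by both cancels. Effects of background or row need not cancel. It ran from -0.14 to 0.69 in PA, from -0.54 to -0.19 in PV, from -0.65 to -0.43 in SA, from -1.25 to -1.07 in LV, from -1.82 to -0.85 in RV and from -2.03 to -1.17 in LA. The means lay 0.99 apart between SA and LA and 0.62 apart between SA and LV. SA and LA are spread unevenly over the rows. In row 1 the SA array read -0.65 and the LA arrays -2.03 to -1.38. In row 2 the SA arrays read -0.61 to -0.43 and the LA array -1.17. In RV the row 2 array read -0.85 and the row 1 arrays -1.82 and -1.44. These values are a description, and they do not say which of the probes follows the gene's RNA.

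**Figure D3:**
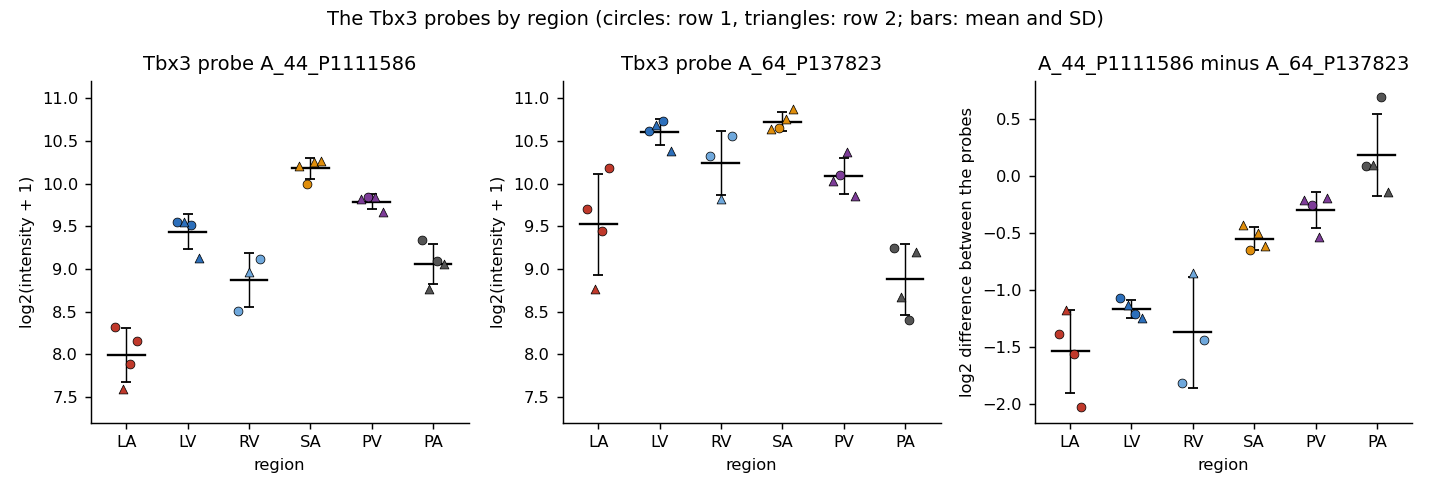
Log2(intensity + 1) of each Tbx3 probe by region and array, and the log2 difference between the probes on each array (right), with mean and SD; only changes between regions, not levels of the probes, are comparable. A_44_P1111586 is highest on all SA arrays and lowest in LA, A_64_P137823 is about as high in LV as in SA, and the difference between them is higher on all PA arrays than on any other array.

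Tbx18 has a further probe, A_44_P378639, which no array of the 23 read well above background and which stayed below the filter, so its values say nothing of the gene. Tbx1, Tbx5 and Tbx20 rest on 1 probe each, whose agreement with another probe cannot be checked.

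PV was set against LA and SA because its wall carries a sleeve of atrial-type muscle. No T-box gene passed the adjusted threshold between PV and LA (limma, 0 of 5), where 13.5% of all genes did. At an unadjusted p under 0.05 there were 2 of 5, and the share of all genes at that level was not counted. Tbx3 was nearest, at 0.56 ± 0.22 (adjusted p = 0.108), and passed on probe A_44_P1111586 (1.80, above), with the array row as a block (0.71, adjusted p = 0.0324), within row 2 (1.32, adjusted p = 0.0475; 0.32, adjusted p = 0.799, within row 1) and without LA replicate 4 (0.78, adjusted p = 0.0162). Without PV replicate 1, which had the highest Tbx1 value of its group (8.19), Tbx1 was lower in PV than in LA (-0.78, adjusted p = 0.0297). Tbx18 was lower on every PV array (10.24, 10.33, 10.28 and 10.19) than on every LA array, a difference of -0.43 ± 0.17 that missed the threshold (adjusted p = 0.118). Between PV and LA the mesothelial markers were lower in 4 of 4 (median -1.70), the smooth muscle markers higher in 4 of 5 (median 3.23), the pericyte markers higher in 3 of 5 and the Schwann cell markers higher in 3 of 4. Their part in the T-box values was not tested.

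PV and SA did not differ past the adjusted threshold in any of the 5 (limma, 0 of 5), where 3.49% of all genes did. At an unadjusted p under 0.05 there was 1 of 5, with no share of all genes counted at that level. The PV minus SA differences were -0.64 ± 0.22 for Tbx3 (adjusted p = 0.133), whose groups did not overlap, and -0.38 to 0.14 for the other 4. LV and RV did not differ past the adjusted threshold either (limma, 0 of 5), where 0.522% of all genes did. At an unadjusted p under 0.05 there was 1 of 5 between LV and RV, again with no share of all genes counted. Tbx18 was the nearest there, with LV minus RV at -0.60 ± 0.19 (adjusted p = 0.176).

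The specificity measure (SPM) of the study's methods sets a region's mean against the root of the summed squares of the LA, V and SA means, and equal levels give 0.577. It is given as a description, with V here as the mean over the 7 ventricular arrays. Tbx5 had the highest SPM in SA (0.631) with LA close behind (0.622) and V at 0.464. Tbx3 had 0.604 in SA, 0.589 in V and 0.537 in LA, and Tbx18 had 0.622 in LA and 0.592 in SA. Tbx20 and Tbx1 had their highest SPM in LA, at 0.612 and 0.597.

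The other genes of the T-box network were taken from lists fixed by name. Of 12 other T-box genes, 6 were tested and 2 differed among the 6 regions, Tbx4 and Mga, where 64.4% of all genes did. Tbx4, the neighbour of the unmeasured Tbx2 and best known from hindlimb and lung, averaged 7.62 in LA, 8.12 in SA and 7.56 in PV. It averaged 5.69 in LV, 5.77 in RV and 5.43 in PA. It was thus higher in LA than in V by 1.89 (adjusted p = 0.000217) and in SA than in V by 2.39 (adjusted p = 2.34e-05), as Tbx5 was. Mga, which joins a T-box to a Max-binding domain, was higher in LA than in V by 0.45 (adjusted p = 0.00148) and higher in PA by 0.58 (adjusted p = 8.29e-06).

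Of 9 T-box partners, 8 were tested and 7 differed between PA and the other regions, 2 higher and 5 lower, where 59.1% of all genes did, with a median of -1.38 against 0.05 over all genes. Nkx2-5, the cardiac homeobox factor, was lower by 5.07 on the log2 scale in PA (-5.07, adjusted p = 5.41e-16), and Gata4 by 2.06 (-2.06, adjusted p = 1.68e-13). Isl1, a factor of outflow and node progenitors, was higher by 5.22 in PA (adjusted p = 6.16e-11). This size depends on the background, since Isl1 was well above it on no LA, LV or RV array and on 1 SA and 1 PV array. Between LA and V 2 of the 8 passed, both higher, where 35.4% of all genes did, and between SA and LA 1 of the 8 did, where 15.3% did. That was Shox2, a sinus node factor, at 3.50 (adjusted p = 3.06e-07), and it averaged 11.40 in SA, 11.03 in PV and 7.90 in LA.

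Of 9 chamber genes known to be under T-box control, all were tested and 8 differed between PA and the other regions, 2 higher and 6 lower (median -2.49), where 59.1% of all genes did. Gja5, a connexin of atrial muscle, conduction tissue and arterial endothelium, was higher in PA by 2.54 (adjusted p = 1.1e-11). Between LA and V 3 passed, 1 higher and 2 lower, a share near the 35.4% of all genes. Nppa, the atrial natriuretic peptide, was higher in LA by 5.32 (adjusted p = 9.41e-07), a mean over unlike ventricles, since it averaged 18.59 in LA, 15.58 in LV and 10.96 in RV (LV minus RV 4.62, adjusted p = 0.0037). In the same comparison Gja5 was lower in LA by 1.81 (-1.81, adjusted p = 1.04e-07) and Pln by 1.27 (-1.27, adjusted p = 1.75e-06). Between SA and LA 1 passed, where 15.3% of all genes did, Gja5, higher in SA by 1.82 (adjusted p = 4.76e-06).

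Of 4 node genes, 3 were tested, and 2 differed between SA and LA, 1 higher and 1 lower, where 15.3% of all genes did. Hcn4, a channel that carries the pacemaker current, was higher in SA by 2.14 (adjusted p = 9.86e-05), and Gjc1, a connexin, was lower (-0.40, adjusted p = 0.0125). Tbx3 was higher in SA than in LA in the same samples. Cacna1g, a T-type calcium channel gene, was higher than in V in both LA (3.54, adjusted p = 3.07e-11) and SA (3.73, adjusted p = 1.42e-11).

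**Figure D4:**
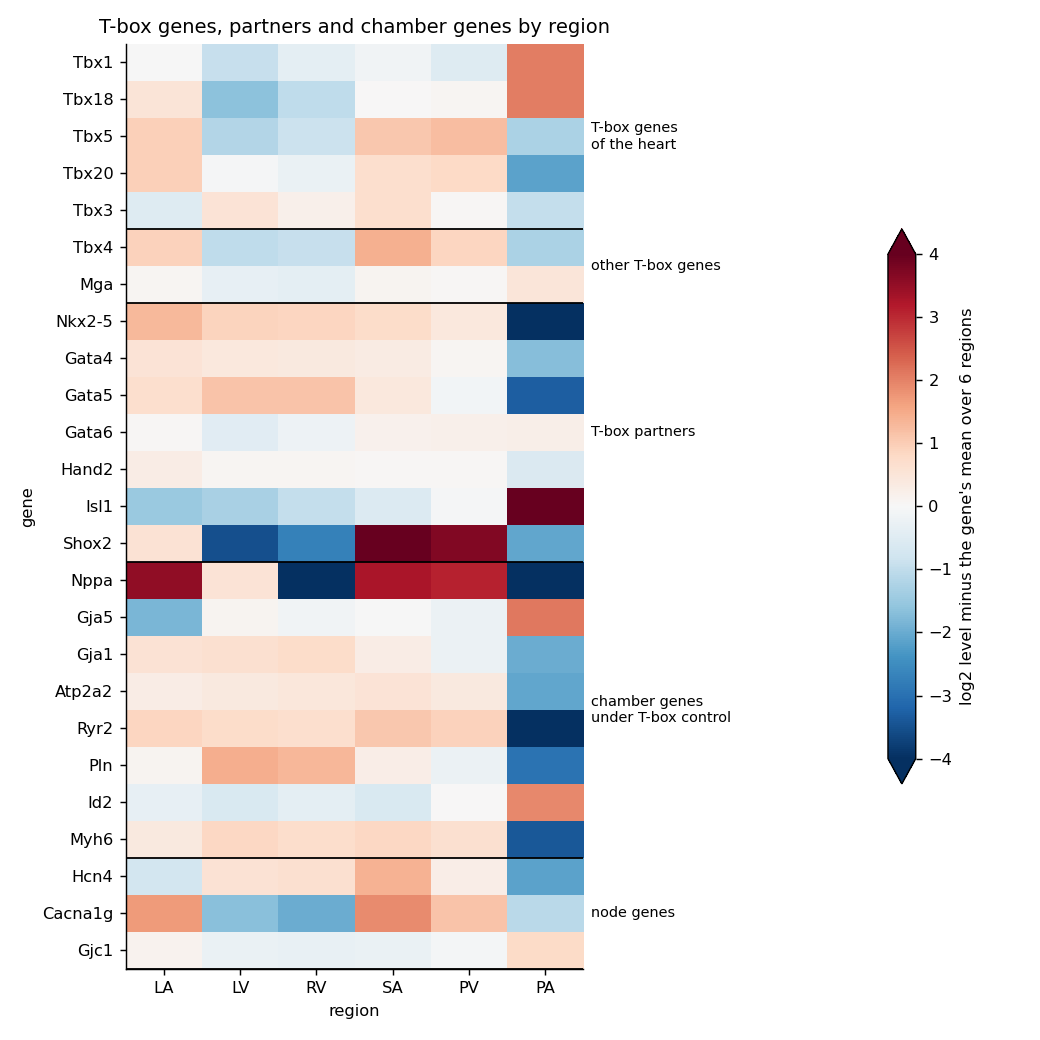
Mean log2 level of each gene in each region minus its mean over the 6 regions, for the measured T-box genes and for the genes of the 4 lists that differed among regions (colors saturate at 4 in either direction). Tbx4 shares the high columns LA, SA and PV with Tbx5, most chamber genes are low in PA, and Shox2 is high in SA and PV.

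The genes whose log2 signal followed each T-box gene most closely over the 23 arrays were found among 13103 candidates, as a description, since arrays of a region share their tissue. For Tbx18 they were Kctd15 (Pearson r = 0.984), Hdgfl3 (0.978) and Il17re (0.976), and Kctd15 averaged 13.85 in PA, 12.08 in LA and 9.85 in LV. For Tbx20 they were Masp1 (0.972), Abcb9 (0.965) and Arap2 (0.964), and for Tbx5 they were Tbc1d8 (0.952), Spock2 (0.941) and Stard10 (0.94). For Tbx1 they were Cdk10 (0.948), Cd276 (0.94) and Ntan1 (0.939). For Tbx3 the closest were Cdadc1 (0.896), Psmd2 (0.894) and Spmip7 (0.889), lower values than for the other 4 genes. The Tbx3 signal here is that of its highest probe, which was not the same probe on every array.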

How the data were processed

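Total RNA of 6 regions was hybridised to 23 single-color Agilent arrays. The scanner headers name Agilent Feature Extraction (version 11.0.1.1). Per the file headers and the study's methods, the authors' deposited normalized values are linear signal intensities, background-subtracted, detrended and scaled by the 90th percentile. They were the main values. The deposited scanner files hold the unnormalized intensity of each spot and gave background flags and alternatives. Of 45598 probes, 158 with a missing value or absent from the value table were removed. Probes were named by unversioned RefSeq accession (21047 of 45440 probes used). The highest probe of a gene on each array was taken as log2(intensity + 1), and genes above 4 on at least 1 array were tested.

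Region means were fitted on all 23 arrays with limma (version 3.58.1, R 4.3.3), and p-values were adjusted by Benjamini-Hochberg over all 16089 genes, or over all 34031 probes in the fit of single probes, with a threshold of 0.05. The steps were tested on simulated data. Promoters were searched with Python 3.11.15, and figures used matplotlib 3.10.9. The T-box genes, the lists and the comparisons were chosen with earlier results of these data known. Named genes were all listed T-box genes with each probe, genes of the 4 lists that differed among regions and were well above background on every array of their highest region, and the 3 most alike genes of each. Alternatives were the scanner signal scaled at 2 percentiles, quantile normalization, normexp, other filters, a pseudocount of 16, the probe of highest mean, single probes, blocks for slide, row and replicate number, each row alone, the compared regions alone, a trend in the prior variance, the methods' analysis of variance, unnamed accessions kept and each array left out. Some genes of the lists are not reported here. The number of arrays limits the precision. No spot was saturated (0 spots).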

Additional observations from a re-analysis of the deposited data

Results flagged for a closer look

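Among 31 distinct sets of 4 values (each T-box gene, and each Tbx3 probe, in each region with 4 arrays), 2 had a sample further from its neighbours than Dixon's ratio allows at 0.829, and chance alone is expected to give about 1 in 20. Both were on Tbx3 probe A_44_P1111586. The LV replicate 4 array read 9.13 on the log2 scale where the other 3 LV arrays read 9.52 to 9.55. The PV replicate 4 array read 9.67 where the other 3 PV arrays read 9.81 to 9.84. Both samples lay below the rest of their group, and both arrays were in row 2.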

How the results depend on the processing

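Of 748 alternative values of the T-box genes in those of the main comparisons that passed the threshold, 727 kept their direction and call, 21 lost the call and 0 turned direction. Of 1700 such values in pairs of regions, 1647 kept both, 52 lost the call and 1 turned direction. Many of these settings could hardly change a value, so the totals do not measure how robust the calls are. Leaving out 1 array, often of a region not compared, gave 428 of the 727 and 969 of the 1647. The number of T-box genes called moved by over 1.5 times in a few settings. Between LA and V it was 2 within row 2, and between SA and V 1 within row 1. Between SA and LA it was 2 with normexp, with a filter that kept only genes above background or with a trend in the prior variance, and 0 within row 1. Leaving out each array gave 1 to 2 there. Between PV and LA it was 1 with the array row as a block or within row 2, and 0 to 1 with each array left out. Each row holds 11 or 12 arrays, and a region then has 1 to 3. The replicate numbers were not taken as pairs, since 12 of 55 same-numbered pairs of samples correlated above 0.1 in their deviations and 4 of the 23 arrays had a nearest array of their own number. With the replicate block 4 genes were called between LA and V (Tbx1: 0.62, adjusted p = 0.0547), and it changed no other count. The numbers are those of the labels, and another source of the study numbers the RV samples differently, which was not tried. Values below the threshold turned direction as follows. With normexp, SA minus LA was 0.11 for Tbx1 and 0.046 for Tbx20, Tbx20 was 0.017 for PV minus LA and -0.029 for PV minus SA, and Tbx5 was 0.063 for LV minus RV. Within row 1, Tbx20 was 0.14 for SA minus LA, 0.11 for PV minus LA and -0.034 for PV minus SA, Tbx3 was 0.026 for LV minus SA, and Tbx1 was 0.31 for LV minus PV and 0.11 for RV minus SA. Within row 2, Tbx18 was -0.10 for PV minus SA, Tbx3 was -0.21 for LA minus PA and -0.26 for RV minus PV, Tbx5 was -0.25 for LV minus PA, and Tbx1 was -0.22 for RV minus PV. With each array left out, SA minus LA ran from -0.28 to 0.043 for Tbx1 and from -0.038 to 0.35 for Tbx5, PV minus SA from -0.077 to 0.16 for Tbx18 and from -0.083 to 0.31 for Tbx5, LV minus RV from -0.065 to 0.49 for Tbx20, LV minus PA from -0.21 to 0.35 for Tbx5, and RV minus PV from -0.095 to 0.41 for Tbx1 and from -0.013 to 0.35 for Tbx3. On Tbx3 probe A_44_P1111586, LA minus PA was -1.07, RV minus PV was -0.92 (adjusted p = 0.000769) and RV minus PA, which passed in the main values, was -0.20 (adjusted p = 0.407). The causes were not tested. Probe A_44_P378639 of Tbx18 gave no values, being below the filter.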
